A study of Mus musculus with 12 samples.

Results

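The genes for neutrophil granule proteins, calgranulins and stefins described here are S100a8, S100a9, Ngp, Camp, Ltf, Lcn2, Stfa2, Stfa3, Stfa2l1 and Elane. They were chosen by symbol, 10 of the 55401 genes in the expression table. Elane, Ngp and Camp were kept apart as 3 immature granule genes, and the other 7 were taken as mature ones. The data are bulk RNA-seq of 12 tumour samples, 3 in each of 4 groups. By the labels, MTC-Q1 oral cancer cells had been injected orthotopically into C57BL/6 mice for all 12, and treatment began when tumours reached 100 mm3. The groups received a control immunoglobulin (Ctrl-IgG), an antibody that blocks the macrophage growth factor receptor CSF1R (aCSF1R), interleukin-10 on an antibody Fc part (IL-10-Fc), or BF10, an antibody against CSF1R that carries interleukin-10. The labels give 6 doses in the treatment protocol and 4 in the series design, and give neither age nor sex. Nothing states whether the 3 libraries of a group came from separate mice, so the p-values measure the spread between these libraries, which may be technical.

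Neutrophils pack antimicrobial and proteolytic proteins into granules that form in sequence while the cell matures in the bone marrow. Elastase (Elane) and myeloperoxidase (Mpo) are made at the promyelocyte stage, the specific granule proteins (Ngp, Camp, Ltf, Lcn2) at later stages, and mature cells carry the calgranulins S100A8 and S100A9 as a large share of their cytosolic protein. Some of these genes are not restricted to neutrophils: calgranulins, lipocalin 2 and stefins are also made by inflamed or cornifying epithelium, and calgranulins by monocytes.

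Several facts of the whole series bear on what follows. The 6 Ctrl-IgG and aCSF1R libraries held Xist, a transcript of female cells, at 0.04 FPKM or less, whereas the 6 IL-10-Fc and BF10 libraries held 17.1 to 30.7 FPKM (FPKM, fragments per kilobase of transcript, scaled to the fragments of the library). The MHC class II gene H2-Ea was at most 0.27 FPKM on the former side and at least 552.8 FPKM on the latter, and the simple epithelial keratin Krt8 was at most 0.28 FPKM against at least 168.9 FPKM. The Y-linked Eif2s3y was 4.23 to 11.3 FPKM on the former side and at most 0.05 FPKM on the latter, except for 3.29 FPKM in BF10 replicate 3. The Ctrl-IgG and aCSF1R groups are called the control side in what follows, and IL-10-Fc and BF10 the interleukin-10 side. H2-Ea is known to be silent in C57BL/6 mice, so its level on the interleukin-10 side goes against the labelled strain. The study also had a breast tumour model in BALB/c mice, and the values do not settle whether the sides differ in strain, sex or tumour model. Treatment cannot be told apart from such a difference in any comparison across the sides, and every fold change between the sides carries this doubt. Keratinocyte genes summed to 1044 to 2259 FPKM in Ctrl-IgG replicate 3 and aCSF1R replicates 1 and 2, and to at most 37.8 FPKM in the other 9 libraries. Mitochondrial transcripts took 6.57% to 9.04% of the FPKM sum in 1 Ctrl-IgG library (replicate 2), 2 of IL-10-Fc (replicates 1 and 2) and 1 of BF10 (replicate 1), and at most 3.61% in the others. Each sample title carries a first number, whose meaning the labels do not give. On the interleukin-10 side, the libraries with a number of 4 or lower were the same 3 that had this high mitochondrial share.

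The calgranulins S100a8 (GRCm38 chromosome 3, 90668978 to 90670035) and S100a9 (chromosome 3, 90692632 to 90695721) encode the partner subunits of calprotectin and lie 22.6 kb apart. They had the highest FPKM of the 10 genes in all 12 libraries. In Ctrl-IgG replicates 1 to 3, S100a8 was 16.2, 23.9 and 153.5 FPKM, while the aCSF1R libraries held 92.9, 164.5 and 82.2 FPKM. In IL-10-Fc it was 1892, 1084 and 394 FPKM, and in BF10 681.4, 194.6 and 293.1 FPKM. Every library of the interleukin-10 side lay above every one of the control side, and among the controls replicate 3, a library with keratinocyte RNA, stood far above the other 2. S100a9 had a like pattern, from 9.47, 13.7 and 138.9 FPKM in the Ctrl-IgG libraries and 76.0, 157.1 and 78.7 FPKM in aCSF1R to 2492, 1676 and 560.4 FPKM in the IL-10-Fc libraries and 872.2, 276.1 and 385.6 FPKM in BF10. The ratio within a library differed between the sides: S100a8 stood at 104.5% to 174.5% of S100a9 in the control-side libraries, and at 64.6% to 78.1% in the libraries of the interleukin-10 side.

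The stefins form a cluster of cysteine protease inhibitors on chromosome 16 that has expanded in the mouse, and 3 of its genes were among the 10. They are Stfa2l1 (chromosome 16, 36156811 to 36161953), Stfa2 (36403992 to 36408457) and Stfa3 (36450537 to 36455392). These 3 genes moved together on the interleukin-10 side (correlation r 0.93 to 0.99). This was not particular to the stefins, since there S100a8 followed them with r 0.95 to 0.99 and S100a9 with r 0.94 to 0.98. On the control side Stfa2l1 followed Stfa2 (r 0.42) and Stfa3 (r 0.52) less closely. The RefSeq promoter windows of the 3 stefins (GRCm38.p6, 250 bases before to 50 after the start) are shown because they are close copies. Stfa2 and Stfa2l1 shared 90.5% of aligned positions, and Stfa3 shared 80.9% with Stfa2 and 81.0% with Stfa2l1. Capitals mark the longest run common to the 3 windows, 28 bases that span the annotated start. Each is given 5′ to 3′ on the strand of its gene, at chr16:36408314-36408613 (minus), chr16:36455343-36455642 (minus) and chr16:36156561-36156860 (plus).
Stfa2: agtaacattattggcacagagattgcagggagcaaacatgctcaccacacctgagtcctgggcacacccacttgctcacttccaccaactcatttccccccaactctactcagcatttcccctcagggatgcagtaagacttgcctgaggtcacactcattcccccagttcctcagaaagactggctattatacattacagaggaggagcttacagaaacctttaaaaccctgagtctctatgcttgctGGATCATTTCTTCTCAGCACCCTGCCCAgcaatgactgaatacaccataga
Stfa3: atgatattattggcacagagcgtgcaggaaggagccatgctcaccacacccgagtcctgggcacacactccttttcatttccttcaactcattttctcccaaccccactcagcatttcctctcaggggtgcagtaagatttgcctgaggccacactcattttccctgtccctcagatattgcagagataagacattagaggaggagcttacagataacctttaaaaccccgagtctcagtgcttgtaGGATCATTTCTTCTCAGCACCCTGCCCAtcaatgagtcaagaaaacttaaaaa
Stfa2l1: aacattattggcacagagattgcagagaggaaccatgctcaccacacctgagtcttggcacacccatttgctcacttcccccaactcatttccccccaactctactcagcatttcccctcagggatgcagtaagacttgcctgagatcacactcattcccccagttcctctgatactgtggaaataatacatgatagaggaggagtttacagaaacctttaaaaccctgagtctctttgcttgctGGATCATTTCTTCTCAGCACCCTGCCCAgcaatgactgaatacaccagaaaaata

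Stfa2 was listed at 0 in Ctrl-IgG replicates 1 and 2 and was 0.97 FPKM in replicate 3. It was 0.19, 0.19 and 0.10 FPKM in aCSF1R, 65.2, 35.5 and 20.1 FPKM in the IL-10-Fc libraries, and 30.4, 7.22 and 12.4 FPKM in BF10. The libraries of the interleukin-10 side were again all above the other 6. Stfa3 was 0, 0 and 2.27 FPKM in the Ctrl-IgG libraries, 0.92, 0.93 and 0.22 FPKM in aCSF1R, 79.0, 36.3 and 17.9 FPKM in the IL-10-Fc libraries, and 24.1, 8.83 and 13.6 FPKM in BF10. Stfa2l1, the highest of these 3 stefins in every aCSF1R library, was 0.83, 0.12 and 3.44 FPKM in the Ctrl-IgG libraries, 2.69, 3.75 and 6.80 FPKM in aCSF1R, 76.3, 44.5 and 27.5 FPKM in the IL-10-Fc libraries, and 51.4, 8.95 and 15.7 FPKM in BF10. Among the Ctrl-IgG libraries all 3 stefins were highest in the keratinocyte-containing replicate 3. Over the whole control side this held for Stfa2 and Stfa3. Stfa2l1 was highest in aCSF1R replicate 3 (6.80 FPKM), where keratinocyte genes summed to only 8.82 FPKM. The values of Stfa2 and Stfa2l1 are uncertain where their sequences are shared, since 5.79% of the 75-base windows of the longest Stfa2 transcript and 7.83% of those of Stfa2l1 occurred in transcripts of other genes, against 0 windows in the other 8 members.

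The other genes of the stefin cluster were read from a list of stefins, cystatins and stefin-like genes, which also holds the 3 members. Of its 13 genes 12 were tested, and limma called 6 higher and 2 lower in IL-10-Fc than in Ctrl-IgG, and 6 higher and 1 lower in BF10. Of all tested genes, 10.1% and 11.8% were called higher in these comparisons. In both comparisons the 6 were the members Stfa2, Stfa3 and Stfa2l1, described above, and their stefin-like neighbours Cstdc4, Cstdc5 and Cstdc6. Only these neighbours were called higher outside the members. Stfa2, Stfa3 and the neighbour Cstdc6, which was at most 0.18 FPKM on the control side, were tested only because of their levels on the interleukin-10 side. For these genes a difference was required beforehand. Cstdc5 was 232.8, 69.7 and 57.6 FPKM in the IL-10-Fc libraries and 72.2, 30.1 and 40.2 FPKM in BF10. In Ctrl-IgG it was listed at 0 in replicates 1 and 2 and was 15.1 FPKM in replicate 3, and in aCSF1R it was 5.55, 10.8 and 0.20 FPKM, so its 3 higher values there were in the 3 libraries with keratinocyte RNA. Csta2 went the other way, with 3.10 to 5.41 FPKM in Ctrl-IgG and 0 in all 3 IL-10-Fc libraries. Csta1, a stefin found in epithelium, was 10.6 to 18.8 FPKM in the 3 keratinocyte-containing libraries and at most 2.35 FPKM elsewhere. Beside those shares of all tested genes, 3 of the 7 cysteine cathepsins that stefins inhibit were called higher in each of IL-10-Fc and BF10 (Ctsc, Ctsh and Ctsk), where Ctsk, a collagen-degrading protease, rose by a log2 fold change of 4.58 and 5.01 respectively.

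On chromosome 9, 3 genes encode specific granule proteins: Camp (109847379 to 109849617), the precursor of the antimicrobial peptide CRAMP, Ngp (110419747 to 110423012), neutrophilic granule protein, and Ltf (111019271 to 111042767), the iron-binding lactoferrin. Ngp was nearly absent from the control side, at 0, 0 and 0.09 FPKM in the Ctrl-IgG libraries and 0.03 FPKM in each of aCSF1R. It was 28.2, 4.31 and 31.2 FPKM in the IL-10-Fc libraries and 6.86, 33.7 and 39.0 FPKM in BF10. Ltf was 0.51, 0 and 0.06 FPKM in the Ctrl-IgG libraries, 0.55, 0.90 and 0.64 FPKM in aCSF1R, 22.5, 3.59 and 12.6 FPKM in the IL-10-Fc libraries, and 12.6, 15.9 and 21.4 FPKM in BF10. The lowest value of both genes among the libraries of the interleukin-10 side was in IL-10-Fc replicate 2, which had the second highest calgranulin values of all. Camp was 0.30, 0.26 and 0.21 FPKM in the Ctrl-IgG libraries and 1.08, 1.93 and 1.69 FPKM in aCSF1R. It was 33.2, 4.10 and 7.40 FPKM in the IL-10-Fc libraries and 3.97, 8.65 and 13.1 FPKM in BF10. Unlike the 3 stefins, Camp and Ltf did not have their highest value of the Ctrl-IgG group in replicate 3, and Ngp had 0.09 FPKM there.

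The promoter windows of Ngp and Ltf are shown with that of Elane because granule genes are known targets of the C/EBP and PU.1 factors. These 3 genes also had their lowest values of the interleukin-10 side in the same 2 libraries (IL-10-Fc replicate 2 and BF10 replicate 1). Camp had its 2 lowest values there as well, and for Ltf the margin to IL-10-Fc replicate 3 was small. The letters TTGCNNAA (C/EBP) and GAGGAAG (PU.1) were searched on both strands, and the motifs did not overlap each other in these windows. Capitals mark matches, which are descriptions of the letters and not binding sites. Of 32851 RefSeq windows of the same length, 10.8% held TTGCNNAA and 13.6% held GAGGAAG. The former was in 4 of the 10 windows (Lcn2, Ltf, Ngp and S100a9), with 2 matches in Ngp, and the latter in 3 (Elane, Lcn2 and S100a8). The window of Camp held neither and is not shown. The windows lie at chr9:110419558-110419857 (plus), chr9:111019042-111019341 (plus) and chr10:79886062-79886361 (plus) of GRCm38.p6.
Ngp: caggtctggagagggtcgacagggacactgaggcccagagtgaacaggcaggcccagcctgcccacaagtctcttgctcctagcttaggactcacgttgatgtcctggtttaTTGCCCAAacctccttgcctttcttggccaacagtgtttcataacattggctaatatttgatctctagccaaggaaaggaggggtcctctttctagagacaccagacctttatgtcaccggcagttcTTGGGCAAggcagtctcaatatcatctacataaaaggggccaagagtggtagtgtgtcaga
Ltf: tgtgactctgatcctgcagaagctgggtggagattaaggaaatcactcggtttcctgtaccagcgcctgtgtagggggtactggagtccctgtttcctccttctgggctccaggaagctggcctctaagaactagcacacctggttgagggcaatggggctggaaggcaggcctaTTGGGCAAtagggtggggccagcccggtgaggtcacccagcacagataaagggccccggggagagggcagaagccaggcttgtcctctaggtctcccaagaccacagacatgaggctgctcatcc
Elane: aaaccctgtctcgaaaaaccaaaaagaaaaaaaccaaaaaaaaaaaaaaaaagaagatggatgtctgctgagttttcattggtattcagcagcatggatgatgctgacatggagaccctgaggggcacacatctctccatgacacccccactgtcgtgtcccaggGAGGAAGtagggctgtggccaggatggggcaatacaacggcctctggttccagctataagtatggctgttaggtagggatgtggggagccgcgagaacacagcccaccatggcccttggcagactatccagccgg

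Elane (chromosome 10, 79886247 to 79888215) encodes neutrophil elastase, the serine protease of the first granules to form, and had the lowest level of the 10 in every library of the interleukin-10 side. It was 0, 0.05 and 0 FPKM in the Ctrl-IgG libraries and 0.04, 0.04 and 0.17 FPKM in aCSF1R. It was 3.24, 0.18 and 2.34 FPKM in the IL-10-Fc libraries and 0.54, 2.47 and 5.07 FPKM in BF10, so that IL-10-Fc replicate 2 came within 0.01 FPKM of the highest aCSF1R library. Mpo, its partner in the same granules, did not exceed 0.08 FPKM on the control side and was 3.35, 0.55 and 3.34 FPKM in the IL-10-Fc libraries, and 0.50, 3.01 and 8.04 FPKM in BF10. The other primary granule proteases, Prtn3 and Ctsg, were present on both sides, with Prtn3 at 6.42 to 12.2 FPKM on the control side and at 1.87 to 15.5 FPKM on the other. Of the 5 primary granule genes on the list, 0 were called in IL-10-Fc against Ctrl-IgG and 2 in BF10, Mpo and the member Elane. The shares called higher over all tested genes were 10.1% and 11.8%. Both Mpo and Elane were tested only because of their levels on the interleukin-10 side, so a difference was required beforehand.

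Lcn2 (chromosome 2, 32384633 to 32388252) encodes lipocalin 2, which binds bacterial iron carriers. It was 9.05, 10.6 and 28.5 FPKM in the Ctrl-IgG libraries and 46.3, 49.7 and 32.5 FPKM in aCSF1R, so these groups did not overlap. It was 166.3, 298.4 and 177.4 FPKM in the IL-10-Fc libraries and 267.7, 48.4 and 97.6 FPKM in BF10. BF10 replicate 2 was below the highest aCSF1R library, which made Lcn2 the exception among the 10: the libraries of the interleukin-10 side lay above all 6 others in 9 of the 10 genes. The same separation held for 9.73% of the 15813 genes tested. Ngp, Ltf, Stfa2, Stfa3 and Elane were tested only because of their levels on the interleukin-10 side. For these genes a difference was therefore required beforehand, and Elane separated only narrowly.

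**Figure D1:**
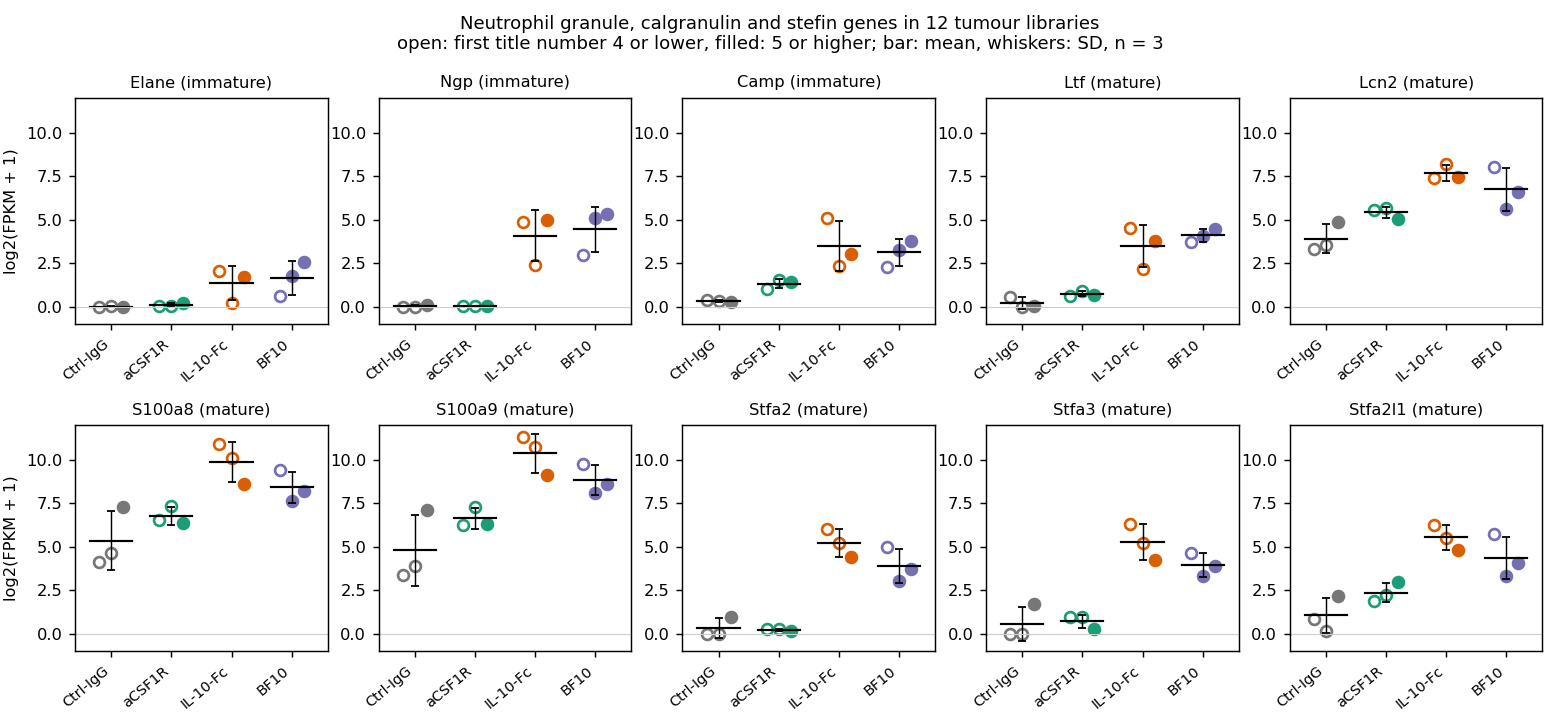
Level of each gene in each library as log2(FPKM + 1), by treatment group, with the group mean as a bar and the SD as whiskers (n = 3); open circles are libraries whose first title number is 4 or lower. The libraries of the interleukin-10 side stand above the control-side libraries in 9 genes, and in Lcn2 BF10 replicate 2 (48.4 FPKM) falls among the aCSF1R libraries.

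To test these differences, limma was fitted to log2(FPKM + 1) of the 15813 genes that reached 1 FPKM in 3 or more libraries. Calls needed a Benjamini-Hochberg adjusted p below 0.05 together with at least a 1.5-fold change, and differences on this scale understate the change of low genes. All 10 genes passed the filter, but Ngp, Ltf, Stfa2, Stfa3 and Elane (5 of 10) passed only through the libraries of the interleukin-10 side, so for these the filter itself required a difference. In bulk tumour RNA, more cells of a type and more RNA of these genes per cell cannot be told apart.

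IL-10-Fc against Ctrl-IgG asks what the cytokine part did. limma called 9 of the 10 genes higher and 0 lower, where 10.1% of all tested genes were called higher. On the log2(FPKM + 1) scale the calgranulin S100a9 had the largest change, from 54.0 ± 73.5 FPKM in Ctrl-IgG to 1576 ± 970 FPKM (SD, n = 3 each). It rose by 5.58 (SE 0.90, limma adjusted p 0.000978), whereas with a pseudocount of 0.1 Stfa2 had the largest (7.36). Among the stefins, Stfa2 rose by a log2 fold change of 4.89 (SE 0.52), Stfa3 by 4.69 (SE 0.60) and Stfa2l1 by 4.48 (SE 0.66). S100a8 rose by 4.53 (SE 0.82), Ngp by 4.05 (SE 0.71), Lcn2 by 3.78 (SE 0.58), Ltf by 3.28 (SE 0.49) and Camp by 3.18 (SE 0.60). Elane was not called (log2 difference 1.33, SE 0.51, limma adjusted p 0.0652). It passed without IL-10-Fc replicate 2, its lowest IL-10-Fc library (1.89, limma adjusted p 0.0136), without BF10 replicate 1 or 3 (1.33 in both), with a pseudocount of 0.1 (3.52) and after scaling by median-of-ratios size factors (1.48). The median change was 4.27 over the 10 genes and -0.39 over all tested genes, and 10 genes were called under that scaling.

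BF10 against Ctrl-IgG asks what the fusion protein did. limma called all 10 genes higher, where 11.8% of all tested genes were called higher. Ngp rose most, from 0.03 ± 0.052 FPKM to 26.5 ± 17.2 FPKM (SD, n = 3 each). Its log2 rise was 4.43 (SE 0.71, limma adjusted p 0.00122). S100a9 rose by 4.03 (SE 0.90), Ltf by 3.88 (SE 0.49), Stfa2 by 3.59 (SE 0.52), Stfa3 by 3.37 (SE 0.60) and Stfa2l1 by 3.30 (SE 0.66). The changes of S100a8, Lcn2 and Camp were 3.07 (SE 0.82), 2.86 (SE 0.58) and 2.80 (SE 0.60). Elane had a log2 difference of 1.65 (SE 0.51, limma adjusted p 0.0361), the smallest on this scale. With a pseudocount of 0.1 it was 4.16, above S100a8 (3.11), S100a9 (4.10) and Lcn2 (2.94). At the pseudocount of 1 Elane lost its call without any one Ctrl-IgG library (1.64 to 1.67). The same held without BF10 replicate 2 (1.59) or 3 (1.19) and without aCSF1R replicate 1 or 3 (1.65 in both). Elane also lost it among all genes above 0 and without the 3 keratinocyte-containing libraries. S100a8 lost its call without BF10 replicate 1 (2.57), Ctrl-IgG replicate 1 (2.46) or Ctrl-IgG replicate 2 (2.72), and Camp without the 3 keratinocyte-containing libraries (2.78, limma adjusted p 0.0517). Both comparisons use the same Ctrl-IgG libraries and cross the sides that differ in Xist and H2-Ea, so they are not separate evidence.

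The calgranulins lost their calls when the 4 libraries of high mitochondrial share were left out. In that fit, a choice made after the values were seen, S100a8 had a log2 fold change of 2.94 in IL-10-Fc and 2.22 in BF10 against Ctrl-IgG, and S100a9 of 3.87 and 3.10 (limma adjusted p 0.0534 to 0.0918). The stefins, Ngp, Ltf, Camp and Lcn2 kept their calls in both comparisons. That fit holds 1 IL-10-Fc library, which is assumed to vary like the other groups. Within title numbers of 5 or higher, where Ctrl-IgG is represented by the keratinocyte-containing replicate 3 alone, S100a8 differed by a mean log2 of 1.35 in IL-10-Fc and 0.63 in BF10. Within those of 4 or lower it differed by 6.11 and 5.04. For Ngp the same values were 4.89 and 5.09 at 5 or higher, and 3.64 and 2.97 at 4 or lower.

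**Figure D2:**
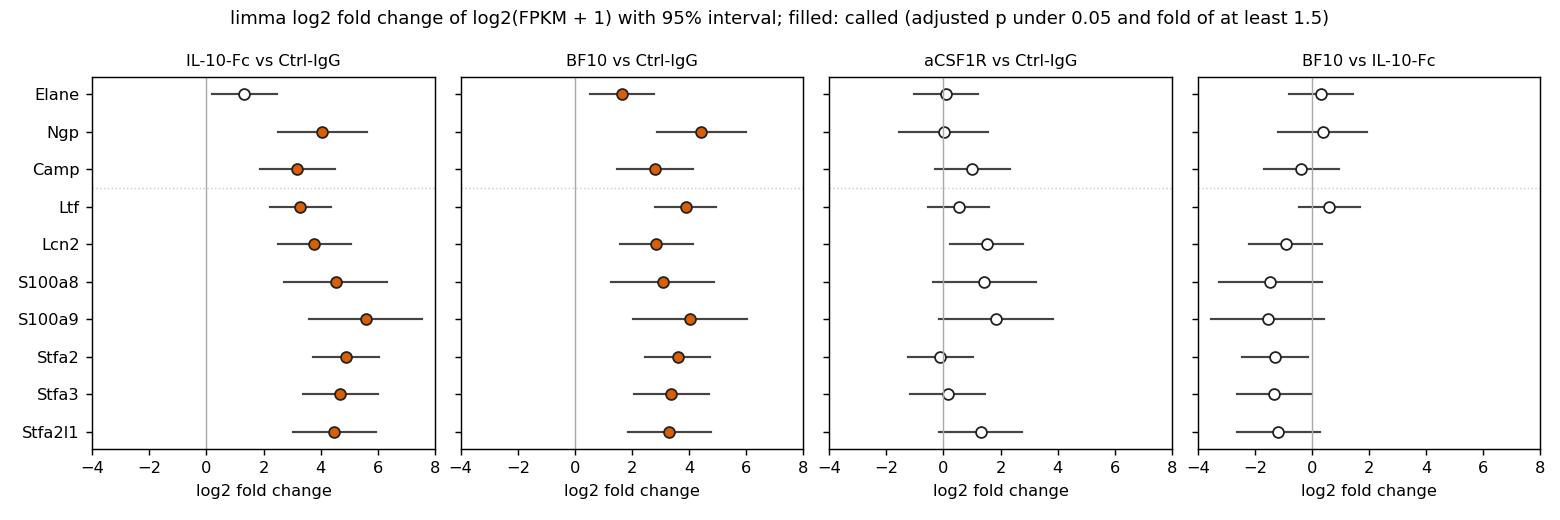
limma log2 fold change of each gene in 4 comparisons, with its 95% interval; filled circles were called, and the dotted line parts the immature (above) from the mature genes. All intervals of IL-10-Fc and BF10 against Ctrl-IgG lie above 0, and no gene was called for aCSF1R against Ctrl-IgG or BF10 against IL-10-Fc.

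Blocking CSF1R alone, the comparison of aCSF1R with Ctrl-IgG, gave no call among the 10 genes, and the share over all genes was 0% (limma, 0 of 15813, with 437 genes at an unadjusted p under 0.05). Of the 10 genes, 1 had an unadjusted p under 0.05. This was Lcn2, whose level was 42.8 ± 9.12 FPKM in aCSF1R and 16.1 ± 10.8 FPKM in Ctrl-IgG (SD, n = 3 each). The log2 difference was 1.51 (SE 0.58, limma adjusted p 0.958). Camp, Ltf and Lcn2 did not overlap between the groups, 3 of the 10, against 8.87% of all tested genes in this direction. S100a8 and S100a9 had log2 fold changes of 1.43 and 1.83, with 95% intervals of -0.38 to 3.24 and -0.15 to 3.82. Keratinocyte RNA was in 1 Ctrl-IgG and 2 aCSF1R libraries, and its part in these values was not tested. Without the 3 libraries concerned, which leaves 1 aCSF1R library, the log2 change was 2.01 for S100a8 and 2.68 for S100a9 and neither was called. For Ngp, Stfa2, Stfa3 and Elane the log2 change lay between -0.11 and 0.16, on levels mostly under 1 FPKM.

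The comparison of BF10 with IL-10-Fc addresses the CSF1R-binding arm and stays on the same side of the divide in Xist and H2-Ea. limma called 0 of the 10 genes, where 0.0126% of all tested genes were called (2 genes, with 828 at an unadjusted p under 0.05). The mature calgranulin, lipocalin and stefin genes had lower values in BF10, with log2 fold changes from -0.92 (Lcn2) to -1.55 (S100a9), and Stfa2 (-1.29) and Stfa3 (-1.32) had an unadjusted p under 0.05. The 95% interval was -3.54 to 0.44 for S100a9 and -2.44 to -0.15 for Stfa2. Ngp, Ltf and Elane had log2 fold changes of 0.37, 0.60 and 0.32, and Camp of -0.37. The groups overlapped in all 10 genes, while BF10 lay wholly below IL-10-Fc in 0.512% of all tested genes. IL-10-Fc holds 2 libraries with a title number of 4 or lower and BF10 holds 1. Within those numbers the log2 difference of S100a8 was -1.07, and within the higher ones -0.72.

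Against aCSF1R, which shares with BF10 the antibody to CSF1R, 7 of the 10 genes were called higher in BF10 by limma, where 11% of all tested genes were called higher. The 7 were Ngp (log2 fold change 4.43), Stfa2 (3.71), Ltf (3.35), Stfa3 (3.21), Stfa2l1 (2.00), Camp (1.79) and Elane (1.56). The other 3 members, S100a9 (2.20), S100a8 (1.64) and Lcn2 (1.34), were not called. The last 3 of the called genes were near the limit (limma adjusted p 0.0452 to 0.0491), and the count fell to 4 without BF10 replicate 3, without any one aCSF1R library or without Ctrl-IgG replicate 1. IL-10-Fc exceeded aCSF1R in 9 of the 10 genes, all except Elane, where 11% of tested genes were called higher. S100a8 lost that call without IL-10-Fc replicate 1 (2.59), with the log2 FPKM sum as a covariate (2.38) and without the libraries of high mitochondrial share (1.86), S100a9 without the latter (limma adjusted p 0.149), and Camp without aCSF1R replicate 1 (2.02). Stfa2 had the largest change of the 10 (log2 fold change 5.00, SE 0.52, limma adjusted p 7.5e-05). Without the 3 keratinocyte-containing libraries, which leaves a single aCSF1R library, 2 members were called in BF10 and 3 in IL-10-Fc. The log2 difference from aCSF1R was then 4.43 in BF10 and 4.05 in IL-10-Fc for Ngp, 3.39 and 2.79 for Ltf, and 1.40 and 2.57 for Stfa2l1, none of them called.

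A departure of BF10 from additive effects of its arms was read from the change of BF10 over Ctrl-IgG, less the changes of IL-10-Fc and of aCSF1R over Ctrl-IgG. limma called 0 of the 10 genes, where 0.00632% of all tested genes were called (1 gene, with 412 at an unadjusted p under 0.05). Of the 10 genes 4 had an unadjusted p under 0.05, all with a level in BF10 below the sum: S100a9 (log2 departure -3.38, SE 1.27), S100a8 (-2.89, SE 1.16), Stfa2l1 (-2.48, SE 0.94) and Lcn2 (-2.44, SE 0.82), each with a limma adjusted p of 1.00. For Ngp, Ltf and Elane the departure was 0.37, 0.07 and 0.23.

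Within the libraries of the interleukin-10 side the 10 genes did not keep a fixed proportion. The calgranulins and stefins were high in BF10 replicate 1 and in IL-10-Fc replicates 1 and 2, whose title numbers are 4 or lower, whereas Ngp, Elane and Mpo were low in BF10 replicate 1 and IL-10-Fc replicate 2. S100a9 was 872.2 to 2492 FPKM in these 3 libraries and 276.1 to 560.4 FPKM in the other 3, and Stfa2 was 30.4 to 65.2 against 7.22 to 20.1 FPKM. The median of the former was 4.35 times that of the latter for S100a9, 3.70 times for S100a8 and 2.66 to 3.27 times for the 3 stefins. Lcn2 overlapped, with 166.3 to 298.4 FPKM in the former and 48.4 to 177.4 FPKM in the latter. Ngp ran from 4.31 to 28.2 FPKM in the former and from 31.2 to 39.0 FPKM in the latter, and its median was 4.91 times higher in the latter. As a share of S100a9 within the library, which no scaling between libraries changes, Ngp was 1.13%, 0.257% and 0.786% in the libraries with low title numbers and 5.57%, 12.2% and 10.1% in IL-10-Fc replicate 3 and BF10 replicates 2 and 3. Elane was 0.13%, 0.0107% and 0.0619% of S100a9 in the former and 0.418%, 0.895% and 1.31% in the latter. In FPKM Elane overlapped, at 0.18 to 3.24 in the former and 2.34 to 5.07 in the latter. Camp overlapped in both measures. Its share of S100a9 was 1.33%, 0.245% and 0.455% against 1.32%, 3.13% and 3.39%, and its level 3.97 to 33.2 FPKM against 7.40 to 13.1 FPKM.

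Ltf, counted with the mature genes, followed Ngp in this share, at 0.214% to 1.44% of S100a9 in the former and 2.25% to 5.76% in the latter. Its own level overlapped, at 3.59 to 22.5 FPKM in the former and 12.6 to 21.4 FPKM in the latter. The median of Ltf was only 1.27 times higher in the latter, and S100a9, the denominator of the share, differed more. Stfa2 stayed between 2.12% and 3.59% of S100a9 in all 6. IL-10-Fc replicate 1 was an exception among the libraries with low title numbers, since it held high levels of both kinds of gene, and it also had the highest Ly6g, a surface marker of mouse neutrophils, at 6.55 FPKM against 1.51 FPKM or less in the other 11. The labels give no meaning for the title numbers, and both treatments occur on each side of this division, so these values describe 6 libraries and no test was made.

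**Figure D3:**
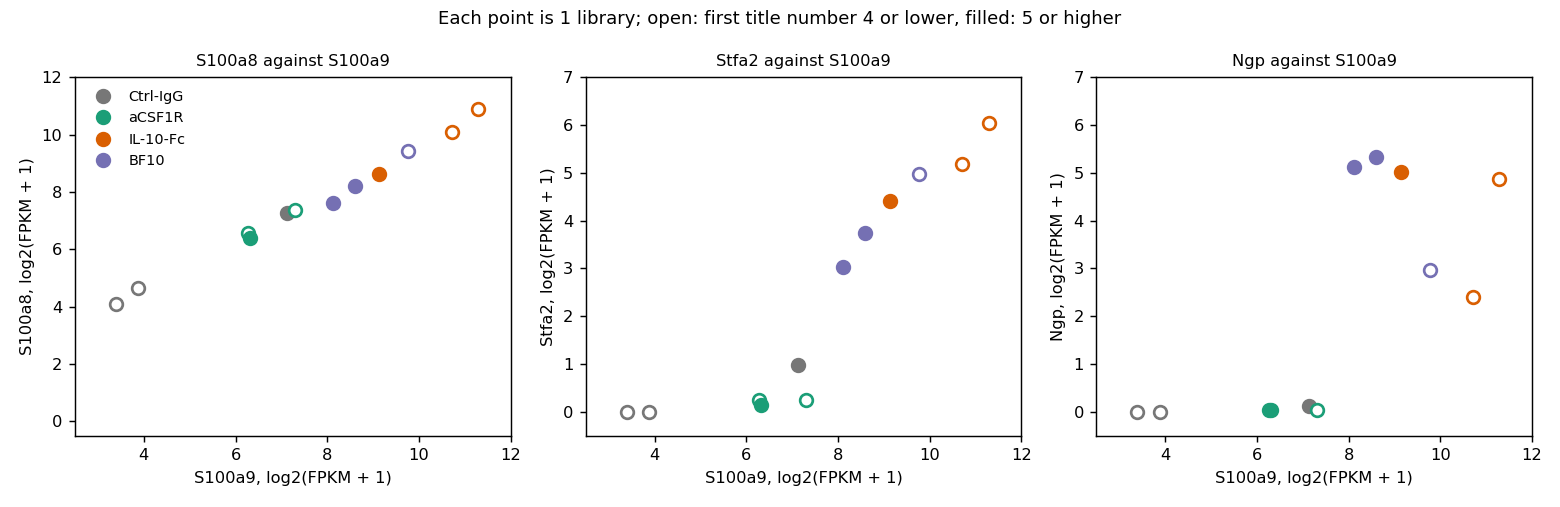
S100a8, Stfa2 and Ngp against S100a9 in the 12 libraries, both axes as log2(FPKM + 1). S100a8 and, above the control side, Stfa2 rise with S100a9, whereas the libraries of the interleukin-10 side with filled circles have less S100a9 (276.1 to 560.4 FPKM) and more Ngp (31.2 to 39.0 FPKM) than the open ones.

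Other genes of neutrophils were read from lists chosen with results of these data known, beside the 10.1% and 11.8% of all tested genes called higher in IL-10-Fc and BF10. Of 12 tested secondary and tertiary granule genes, limma called 8 higher and 1 lower in IL-10-Fc than in Ctrl-IgG, and 6 higher and 1 lower in BF10. Both counts include the members Ngp, Camp, Ltf and Lcn2, of which Ngp and Ltf had passed the filter only through the interleukin-10 side. Outside the members, those called higher were Anxa1, Mmp8, Mmp9 and Padi4 in IL-10-Fc, and only Mmp9 and Padi4 in BF10. Besides Ngp, Camp, Ltf and Lcn2 the gelatinase Mmp9 rose in both, by log2 fold changes of 4.74 and 5.28, as did Padi4, the enzyme that citrullinates histones, by 2.06 and 2.84. Chil3, a chitinase-like protein also made by monocytes and macrophages, fell by 2.69 and 2.33. Mmp9 and Padi4 were higher in the libraries with high title numbers, where Mmp9 was 175.3 to 296.8 FPKM against 48.4 to 72.4 FPKM.

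Of 18 tested genes on a list for mature neutrophils, 4 were called higher and 1 lower in each of IL-10-Fc and BF10 against Ctrl-IgG. These were G0s2, Mrgpra2b, Retnlg and Wfdc21, with the cystine transporter Slc7a11 lower. Retnlg, a resistin-like protein of neutrophils, was 105.1, 83.7 and 24.7 FPKM in the IL-10-Fc libraries and 87.5, 9.94 and 17.6 FPKM in BF10, an order close to that of S100a9. Receptors that define circulating neutrophils were not called in either comparison. Cxcr2 was at most 2.60 FPKM in any library, and Csf3r, the receptor for G-CSF, ran from 1.66 to 12.9 FPKM. The summed level of the 20 listed mature neutrophil genes ran from 67.3 to 132.7 FPKM in the Ctrl-IgG libraries, 95.8 to 138.6 FPKM in aCSF1R, 148.6 to 437.4 FPKM in IL-10-Fc and 102.5 to 311.4 FPKM in BF10, so BF10 overlapped both control-side groups. Of 9 macrophage genes 3 (C1qa, C1qc and Mrc1) were called higher and 6 were not called in each of IL-10-Fc and BF10, with summed levels of 239.9 to 765.4 FPKM on the control side against 792.5 to 1244 FPKM. Of 6 monocyte genes 1 was called higher and 2 lower in IL-10-Fc, and 0 higher and 2 lower in BF10. The part of either cell type in the calgranulin values was not tested.

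Csf3, which encodes the granulocyte growth factor G-CSF, lay between 0.16 and 1.41 FPKM on the control side and was 68.5, 173.1 and 72.3 FPKM in the IL-10-Fc libraries, and 110.3, 18.8 and 31.1 FPKM in BF10. It was called higher in both, with log2 fold changes of 5.98 and 4.76. Of the 6 granulopoiesis regulators tested, 2 were called in IL-10-Fc (Csf3 and Cebpd) and 1 in BF10 (Csf3), while Cebpe, a factor of late granule genes, did not pass the filter. Inhibitors of neutrophil elastase were called higher in 3 of 5 tested genes in both comparisons (Serpina1a, Serpina1b and Wfdc2). Of the 13 S100 family neighbours and calgranulin receptors on a list, 2 were called higher (S100a4 and S100a11) and 2 lower in IL-10-Fc, and 1 higher and 3 lower in BF10, with 9 of the 13 not called in each. Among 5 tested receptors for lipocalin 2, lactoferrin and CRAMP, Itln1 was called higher in IL-10-Fc, and Itln1, Lrp1 and Slc22a17 in BF10. Itln1 was listed at 0 in every control-side library and was tested only because of its levels on the interleukin-10 side.

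**Figure D4:**
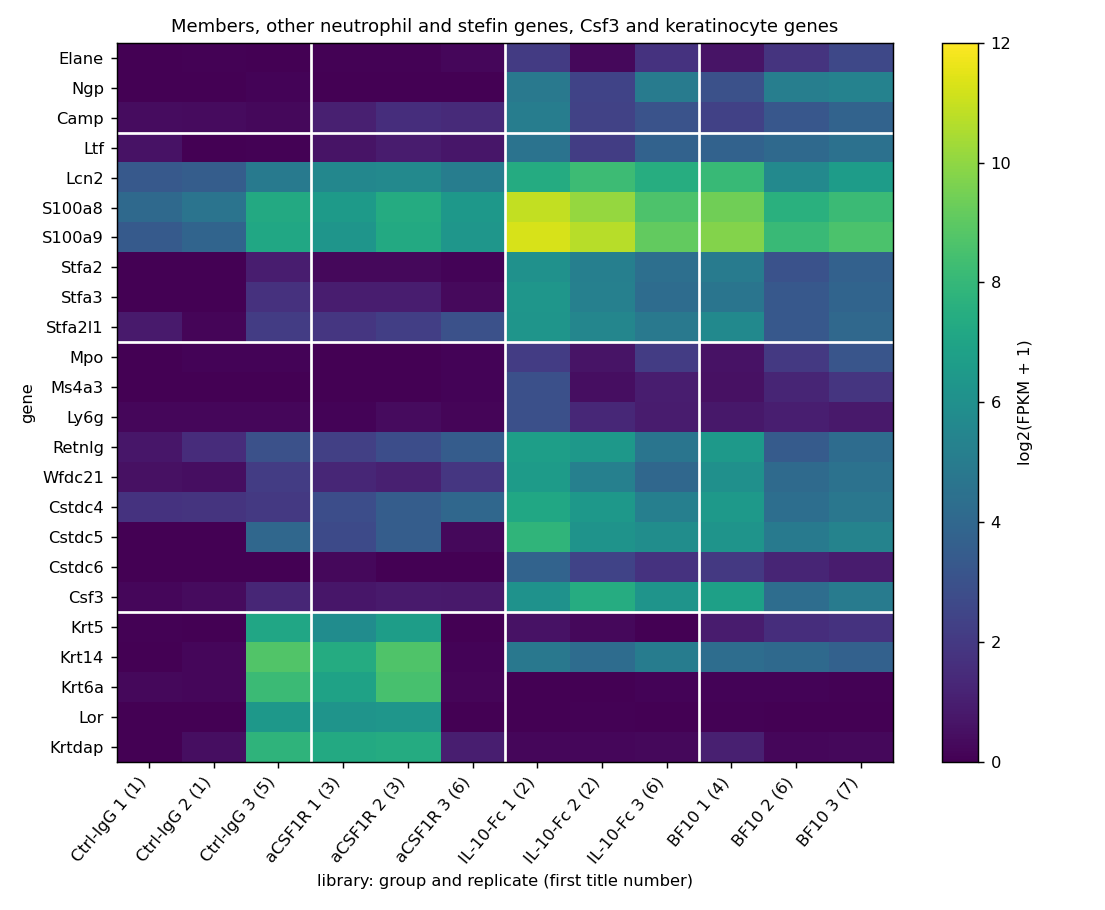
log2(FPKM + 1) of the 10 genes (first 3 immature, next 7 mature), of other neutrophil and stefin-like genes with Csf3, and of keratinocyte genes, by library, with the first title number in brackets. Ctrl-IgG replicate 3 and aCSF1R replicates 1 and 2 alone hold Krt5, Krt6a, Lor and Krtdap at high levels, and IL-10-Fc replicate 1 has the highest Ly6g (6.55 FPKM).

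The genes whose values over the 12 libraries were most like those of the 10 were named by Pearson's r with the mean log2(FPKM + 1) of the immature and of the mature genes, among 13129 tested genes. For the immature mean they were Itln1, Dcstamp, Hist1h2al, Ocstamp, Apc2 and Spns3, with r from 0.95 to 0.96. For the mature mean they were Il11ra1, Lum, Svip, Gpm6b, Wfdc21 and Tfpi2, with r from 0.97 to 0.98. These values are descriptions over 12 libraries that fall into both sides, and any gene that separates the sides scores high. Lum, a collagen-binding proteoglycan, was 249.3, 147.2 and 45.2 FPKM in the IL-10-Fc libraries and 122.7, 29.8 and 30.2 FPKM in BF10, against 0.18 to 11.1 FPKM on the other side. Dcstamp, a fusion protein of osteoclasts and dendritic cells, was 2.56, 1.44 and 3.42 FPKM in the IL-10-Fc libraries and 2.03, 4.20 and 4.08 FPKM in BF10, with its lowest value of the 6, like Ngp and Elane, in IL-10-Fc replicate 2.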

How the data were processed

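The authors prepared stranded mRNA libraries from tumour RNA and deposited FPKM values per gene and library. The submitters' processing notes name STAR 2.7.5a, RSEM 1.3.3, DESeq2 1.30.0 and the mm10 and GRCm38 builds, without their roles. FPKM values carry no counts, so the depth behind single values is unknown, and FPKM sums per library ran from 637596 to 976950. The deposited tables of the authors' own comparisons (fold changes and p-values) were not used.

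Values were transformed to log2(FPKM + 1), and a gene needed 1 FPKM or more in 3 or more libraries. limma 3.58.1 in R 4.3.3, with moderation that follows the mean level, fitted all 12 libraries without covariates, with Benjamini-Hochberg adjustment over 15813 genes. The script was checked on simulated data. Groups came from the treatment label, and replicate numbers follow sample order. The members and lists were chosen with earlier results of these data known. Named genes were the members, list members, the 6 genes most correlated with the immature and with the mature mean (without predicted genes, receptor segments and pseudogenes), and Xist, Eif2s3y, H2-Ea, Csf3 and Csf1r. Older stefin names were matched by gene identifier. Positions are from GENCODE M21 (GRCm38), and promoters from RefSeq (GRCm38.p6), found for all 10 members. Motifs and alignments used Python 3.11.15 and Biopython 1.88. Alternatives were another pseudocount, filter, scaling or covariate, the fit of the groups compared alone, and each library left out. A pair of further alternatives, without the keratinocyte-containing libraries and without those of high mitochondrial share, was chosen after seeing the data.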

Additional observations from a re-analysis of the deposited data

How the results depend on the processing

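The members called higher numbered 8 to 10 in IL-10-Fc and 8 to 10 in BF10 against Ctrl-IgG over all alternatives, and 0 in aCSF1R against Ctrl-IgG, in BF10 against IL-10-Fc and in the departure from the sum. In BF10 against aCSF1R the members called fell from 7 to 4 among all genes above 0, among genes averaging 5 FPKM or more and after rescaling to TPM. With 1 library left out at a time that count ran from 4 to 7. Without the 3 libraries with keratinocyte RNA, chosen after seeing the data, 2 members were called in BF10 and 3 members in IL-10-Fc against aCSF1R. That fit holds 1 aCSF1R library, and the differences of the members Ngp and Ltf stayed within 0.1 of their main values.

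Among the comparisons of pairs of groups, directions turned only where no member was called, within a side, and the cause was not tested. For the departure from the sum, directions were followed only for S100a8, S100a9, Lcn2 and Stfa2l1, and did not turn. Those of the other members were not recorded. In aCSF1R against Ctrl-IgG, whose main log2 value was 0.0012 for Ngp, -0.11 for Stfa2, 0.16 for Stfa3 and 0.090 for Elane, the log2 FPKM sum as a covariate gave -0.34 for Ngp, 0.11 for Stfa2 and -0.091 for Elane. A pseudocount of 0.1 gave 0.22 for Stfa2, and leaving out the keratinocyte-containing libraries gave 0.14. Without the 4 libraries of high mitochondrial share Ngp was -0.020 and Stfa3 -0.13. With 1 library left out Ngp ran from -0.020 to 0.043, Stfa2 from -0.28 to 0.21 and Stfa3 from -0.13 to 0.73. In BF10 against IL-10-Fc the log2 FPKM sum gave -0.41 for Ngp and -0.10 for Elane, median-of-ratios size factors -0.036 for Ngp, quantile normalization -0.049 for Elane, and leaving out the libraries of high mitochondrial share 0.47 for Camp. With 1 library left out Ngp ran from -0.47 to 1.12, Camp from -0.95 to 0.42, Ltf from -0.052 to 1.12 and Elane from -0.24 to 0.84.

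No paired analysis was possible because the title numbers, whose meaning is not given, do not match libraries one to one: Ctrl-IgG shares no first number with another group, the other groups share only 6, and second numbers repeat within Ctrl-IgG and IL-10-Fc and are otherwise shared at most once. With a term for first numbers of 4 or lower, the members called were 10 in IL-10-Fc and 10 in BF10 against Ctrl-IgG, and 10 and 6 against aCSF1R. FPKM values give no depth, so differences among members under 1 FPKM cannot be weighed against counting error.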
